A study of Mus musculus with 8 samples.

Results

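DNA replication and S-phase genes were examined on arrays of mouse leukemic cells treated with the DOT1L inhibitor EPZ4777, as 51 named genes chosen for known roles in licensing, initiation, the replication fork, nucleotide supply, chromatin assembly and G1/S control. Of these, 50 had a probe set annotated with their symbol alone, out of 18193 genes with such a probe set, and each gene was read from its brightest one. Chaf1a was not analysed here. The study hybridised total RNA from MLL-AF9 transformed cells to 8 Affymetrix arrays, 2 in each of 4 groups, all grown with SCF, IL-3 and IL-6. The groups were shLUC cells after 6 days in 3 µM EPZ4777 (codes A4 and D11), shLUC cells in DMSO (the same codes), cells labelled shSirt1 after 21 days in 3 µM EPZ4777 (codes A1 and A5), and cells labelled shSirt1 in DMSO (the same codes). shLUC is a hairpin against luciferase and shSirt1 one against the deacetylase gene Sirt1. Every group shares the fusion oncogene MLL-AF9, and no group lacks a hairpin. The sources used here give neither the meaning of the codes nor a culture time for the DMSO arrays. No label says whether arrays in the same group are from separate cultures, so p-values below measure no more than the spread of these samples, and that spread may be technical.

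DNA replication begins when the origin recognition complex (ORC), Cdc6 and Cdt1 load the Mcm2-7 helicase ring onto origins in G1, a step called licensing. In S phase the kinases Cdc7-Dbf4 and cyclin E-Cdk2 activate the ring, which then works with Cdc45 and the GINS complex to unwind DNA while primase and the DNA polymerases copy both strands. The sliding clamp PCNA, placed by replication factor C, holds the polymerases on DNA, and RPA coats the exposed single strands. Most of these genes are transcribed in late G1 under E2F factors, which the retinoblastoma protein holds back until cyclin-dependent kinases phosphorylate it. Cells that leave the cycle to mature, as myeloid cells do, normally lower them.

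RefSeq promoter windows (GRCm38.p6, 250 bases before to 50 after an annotated start) matched 43 of the 51 genes by symbol. Below are the 250 bases before the start for the 3 genes that fell past the test's threshold with EPZ4777 (Cdc6, Mcm10 and Pold2), and for Mcm6, where E2F words overlap each other. Capitals mark E2F words (TTTCCCGC, TTTGGCGC, TTTCGCGC or TTTGCCGC) or the word CCAAT, on either strand, and each is read 5′ to 3′ on the gene's strand.
Cdc6, chr11:98907901-98908150, plus strand: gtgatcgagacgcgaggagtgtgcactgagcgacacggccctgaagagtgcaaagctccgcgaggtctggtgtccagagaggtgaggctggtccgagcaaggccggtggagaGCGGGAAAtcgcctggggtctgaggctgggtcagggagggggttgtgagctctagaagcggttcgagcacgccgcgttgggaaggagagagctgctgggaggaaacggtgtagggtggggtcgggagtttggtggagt
Mcm10, chr2:5012792-5013041, minus strand: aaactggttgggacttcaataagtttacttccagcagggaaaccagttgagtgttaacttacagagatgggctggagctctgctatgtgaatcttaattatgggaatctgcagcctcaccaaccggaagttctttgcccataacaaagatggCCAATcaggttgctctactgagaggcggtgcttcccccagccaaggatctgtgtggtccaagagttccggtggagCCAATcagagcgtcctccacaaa
Pold2, chr11:5878257-5878506, minus strand: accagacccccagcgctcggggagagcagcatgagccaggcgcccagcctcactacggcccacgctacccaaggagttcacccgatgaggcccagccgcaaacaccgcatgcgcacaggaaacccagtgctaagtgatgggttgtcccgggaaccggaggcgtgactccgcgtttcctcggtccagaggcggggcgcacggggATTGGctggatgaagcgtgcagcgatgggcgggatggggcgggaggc
Mcm6, chr1:128359706-128359955, minus strand: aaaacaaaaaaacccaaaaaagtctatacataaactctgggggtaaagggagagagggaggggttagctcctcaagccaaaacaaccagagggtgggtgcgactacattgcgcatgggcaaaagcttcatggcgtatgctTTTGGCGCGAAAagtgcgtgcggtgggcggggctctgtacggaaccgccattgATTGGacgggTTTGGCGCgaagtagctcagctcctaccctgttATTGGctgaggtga
The Cdc6 stretch held 1 E2F word and no CCAAT, and that of Mcm6 held 3 E2F words and 2 CCAAT. The Mcm10 stretch held 2 CCAAT and the Pold2 stretch 1, both without an E2F word. Pold2 has another annotated start whose window holds neither word.

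Over the full windows, 15 of 43 replication genes (34.9%) held an E2F word, against 704 of 27025 genes with a window (2.61%). CCAAT occurred in 60.5% of them, against 41.1% of all genes, and TTTGAA, the letters of the cell cycle homology region of mitotic genes, in 18.6% against 20.2%. The E2F words can overlap one another, as in Mcm6 and Mcm5, and no search covered weaker sites. The genes with an E2F word had a median log2 difference of -0.24 between 6 days of EPZ4777 and DMSO (n = 15), and those with a window but no such word -0.22 (n = 27). These medians lay close together. A match describes letters in a window and no binding was measured.

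The hairpin label held for the code A1 and not for A5. Sirt1 had log2 intensities of 8.85 (A1) and 9.73 (A5) in labelled shSirt1 cells with EPZ4777, and 8.70 (A1) and 9.54 (A5) in the same label in DMSO. In shLUC cells it had 9.44 and 9.83 with EPZ4777, and 9.46 and 9.58 in DMSO. Only the 2 A1 arrays lay below every shLUC array, so the A5 library is called by its label here and not as a knockdown. Leukemic-cell markers were bright as a sum on every array, at 26250 to 35030 over 10 genes, and T-cell, B-cell and erythroid markers summed to at most 179. Meis1, 1 of the 10, was dim with EPZ4777. It had 4.01 and 3.62 in shLUC cells, against 7.62 and 7.93 in DMSO (limma adjusted p = 0.024). In labelled shSirt1 cells it had 5.26 and 3.93 with EPZ4777, against 7.64 and 6.91 in DMSO (limma adjusted p = 0.069). Mature-neutrophil markers (11 of 12 measured) summed to 59980 and 101500 in shLUC cells with EPZ4777, against 26870 and 35040 in DMSO. In labelled shSirt1 cells they summed to 61010 and 104200 with EPZ4777, against 11500 and 28800 in DMSO. In bulk RNA, fewer cells of a type and less RNA per cell cannot be told apart.

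The replication genes were a little lower, nearly all together, in shLUC cells after 6 days of EPZ4777. Averaged over the 50 genes, log2 intensity was 10.01 (A4) and 9.99 (D11) with EPZ4777, against 10.24 (A4) and 10.21 (D11) in DMSO. All genes averaged 6.58 to 6.61 on these arrays, so the shares of all genes given here come from a set that is dimmer on average. The median log2 difference of the 50 genes was -0.24, which is 84.9% of the DMSO level, against -0.0025 over all genes. By code it was -0.21 in A4 and -0.22 in D11. Of the 50, 44 had a negative difference, and in 39 (78%) both EPZ4777 arrays lay below both DMSO arrays, a pattern that 28.2% of all genes showed. The reverse pattern held in 4, Mcm4, Cdc7, Ccne2 and E2f1, and in 24.2% of all genes. Few of these differences passed the test taken gene by gene.

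**Figure D1:**
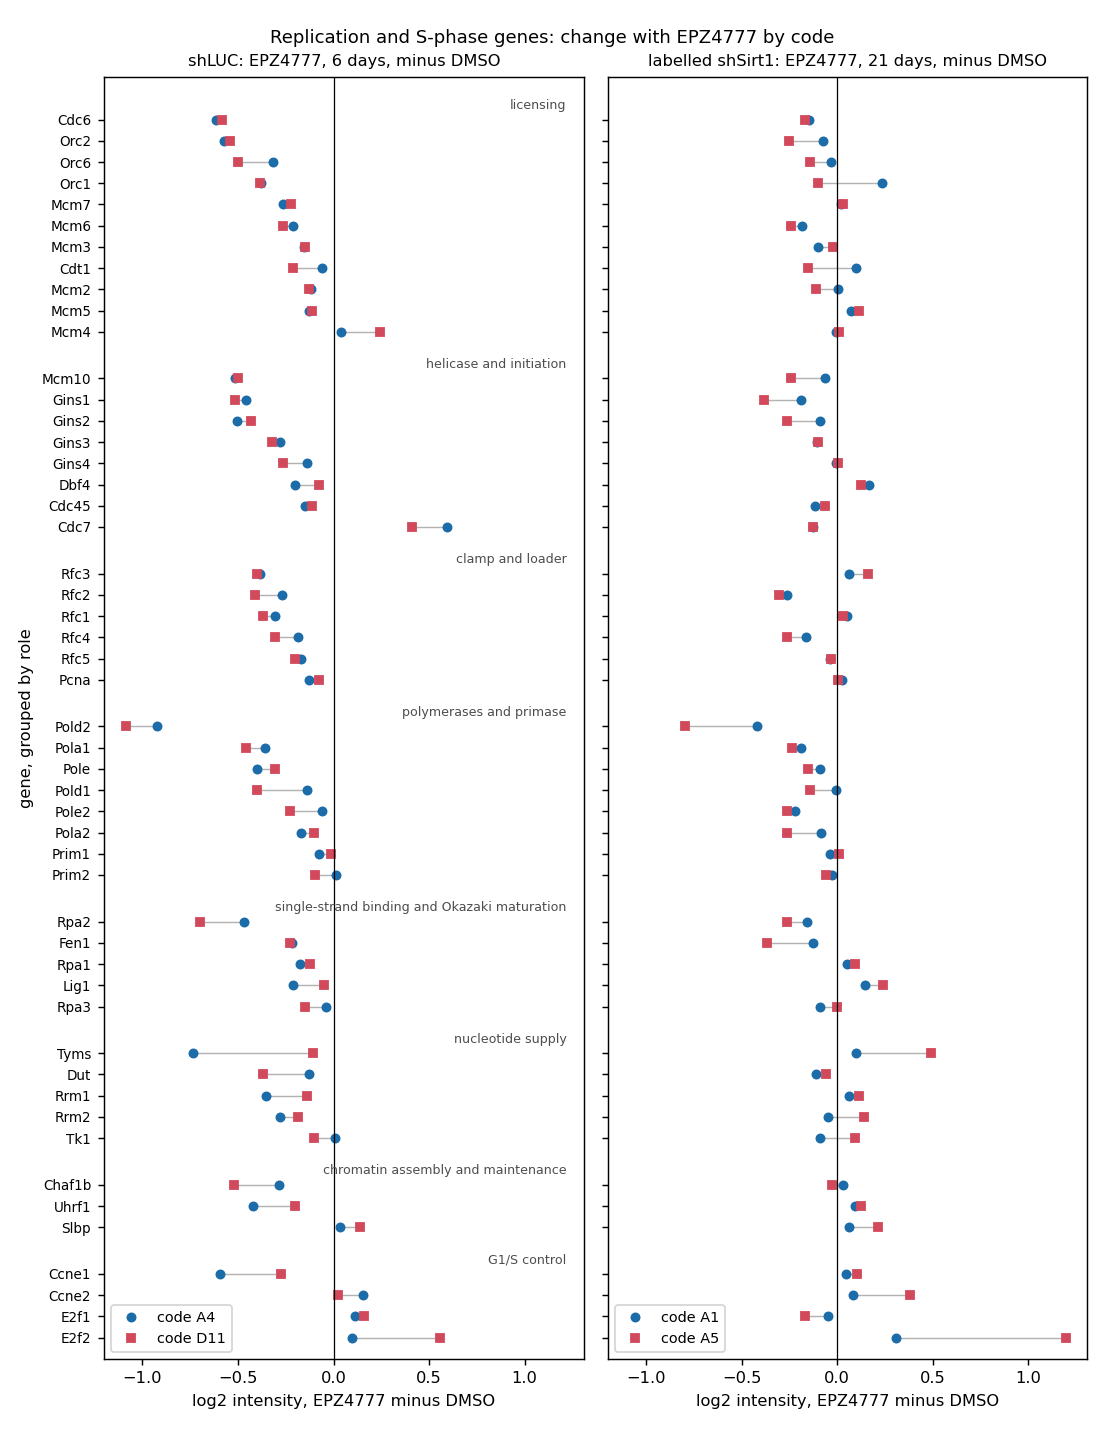
Log2 intensity with EPZ4777 minus DMSO (x axis) for each of the 50 genes, ordered by role (rows), with 1 point for each code, shLUC at 6 days on the left and labelled shSirt1 at 21 days on the right. On the left 44 genes have a negative mean difference and the median lies near -0.24; on the right 32 do, around a median of -0.04.

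With limma and Benjamini-Hochberg adjustment over all genes, 3 replication genes fell past an adjusted p of 0.05 (6% of 50, against 2.36% of all genes lower), and none rose (1.62% of all genes did). They were Pold2, Cdc6 and Mcm10. At an unadjusted p under 0.05, 17 were lower (34%, against 12.2% of all genes) and 1, Cdc7, was higher (9.49% of all genes). With the code as a block, 4 fell (against 3.61% of all genes) and 0 rose (3.63%): Cdc6 and Pold2 stayed, Orc2 and Rpa2 were added, and Mcm10 was at a limma adjusted p of 0.051. As a random block the code gave 12 lower (7.59% of all genes) and 1 higher (5.49%), 13 in all. Leaving out 1 array at a time gave 0 to 3 genes, while the median stayed between -0.25 and -0.17. In these 8 fits the call of Mcm10 was lost in 8, that of Cdc6 in 5 and that of Pold2 in 3. The count was 0 without either shLUC DMSO array or without the D11 EPZ4777 array. With 2 arrays on each side an exact test gives no p under 0.333, so these calls lean on the spread shared across genes.

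Pold2, an accessory subunit of DNA polymerase delta, had the largest fall. Its log2 intensities were 9.13 and 8.86 with EPZ4777 in shLUC cells, against 10.05 and 9.95 in DMSO. The groups lay far apart, and the level was 49.8% of that in DMSO (log2 difference -1.01 ± 0.15, SE, n = 2 each, limma adjusted p = 0.030). In labelled shSirt1 cells it had 9.60 and 9.27 with EPZ4777, against 10.02 and 10.07 in DMSO. It was lower there too without passing the test (-0.61 ± 0.15, limma adjusted p = 0.151).

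Cdc6, which loads the helicase ring at origins, fell to 66.1% of the DMSO level. It had 9.55 and 9.49 with EPZ4777 in shLUC cells, against 10.17 and 10.08 in DMSO (log2 difference -0.60 ± 0.10, SE, n = 2 each, limma adjusted p = 0.035). All other arrays were above these 2, since labelled shSirt1 cells had 10.01 and 9.96 with EPZ4777, against 10.15 and 10.12 in DMSO (-0.16, limma adjusted p = 0.474). Mcm10, which helps turn the loaded ring into a working fork, had 8.60 and 8.54 with EPZ4777 in shLUC cells, against 9.12 and 9.04 in DMSO. The difference was -0.51 ± 0.10 (limma adjusted p = 0.048, the closest to the threshold of the 3). In labelled shSirt1 cells Mcm10 had 9.07 and 8.93 with EPZ4777, against 9.13 and 9.17 in DMSO, a narrow gap of -0.15 (limma adjusted p = 0.509).

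**Figure D2:**
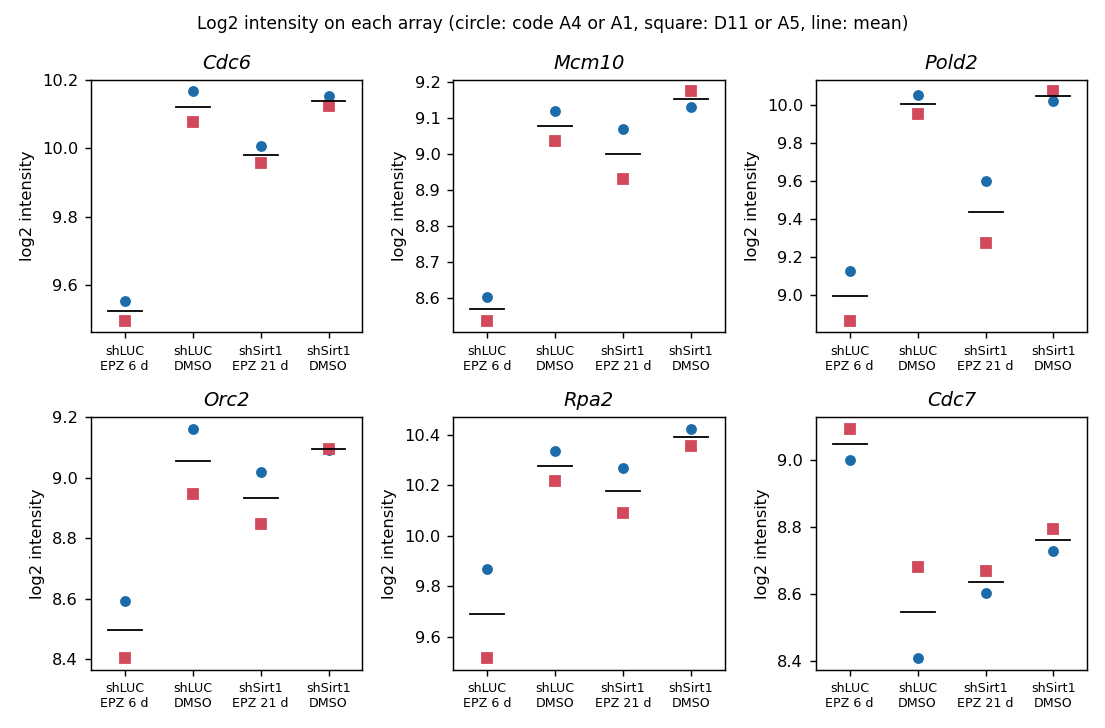
Log2 intensity (y axis, a separate scale in each panel that does not start at 0) on every array for 6 genes, by group (x axis), with a circle for code A4 or A1, a square for D11 or A5 and a line for the mean of 2. Cdc6, Mcm10, Pold2, Orc2 and Rpa2 are lowest on the shLUC EPZ4777 arrays, and Cdc7 is highest there.

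Among the 11 licensing genes the median difference at 6 days was -0.24, and 10 of 11 had both EPZ4777 arrays below both DMSO arrays. The share of all genes with that pattern, 28.2%, stands beside this count and those of the other roles at 6 days. Cdc6 and the ORC subunits lay at the lower end. Orc2, a core subunit of ORC, had 8.59 and 8.40 with EPZ4777, against 9.16 and 8.95 in DMSO. Both EPZ4777 arrays were lower (-0.56 ± 0.13, limma adjusted p = 0.062, and 0.043 with the code as a block). Orc6 differed by -0.41 and Orc1, the ATPase subunit made in late G1, by -0.38, with limma adjusted p of 0.101 and 0.107. The brightest sets of the Mcm ring subunits differed less, Mcm7 by -0.24, Mcm6 by -0.24, Mcm3 by -0.15, Mcm2 by -0.12 and Mcm5 by -0.12. Dimmer sets reached -0.50 for Mcm7 and -0.72 for Mcm3 (limma adjusted p = 0.053 and 0.061 in the fit of every probe set). Cdt1, the partner of Cdc6 in loading the ring, differed by -0.14. Mcm4 was the exception, with 11.82 and 11.94 with EPZ4777 against 11.78 and 11.69 in DMSO. Its arrays barely separated (0.14, limma adjusted p = 0.683), and another Mcm4 probe set gave -0.34.

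In the 8 helicase and initiation genes the median was -0.25, with 6 genes not overlapping on the lower side. Gins1 and Gins2, subunits of the GINS complex that rides with the helicase, differed by -0.49 and -0.47 (limma adjusted p = 0.091 and 0.071). Gins3 and Gins4 differed by -0.30 and -0.20, and Cdc45, the third component of the active helicase, by -0.13. The Cdc7 kinase and its activator Dbf4 had differences of opposite sign. Cdc7 had 9.0 and 9.1 with EPZ4777 in shLUC cells, against 8.4 and 8.7 in DMSO. It had the largest positive difference of the 50 genes (0.50 ± 0.12, limma adjusted p = 0.069, 0.052 with the code as a block), though a second, dim Cdc7 probe set gave -0.13. Dbf4 differed by -0.14 (limma adjusted p = 0.504). In labelled shSirt1 cells Cdc7 had 8.60 and 8.67 with EPZ4777, against 8.73 and 8.79 in DMSO.

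On the probe sets used, all 6 clamp and loader genes had both EPZ4777 arrays below both DMSO arrays, with a median of -0.29. The 5 subunits of replication factor C, the ATPase that opens the clamp, ran from -0.39 (Rfc3) over -0.34 (Rfc2), -0.34 (Rfc1) and -0.25 (Rfc4) to -0.19 (Rfc5). Other Rfc1 probe sets gave -0.04 (mean log2 9.70, against 10.22 for the set used) and -0.39 (9.13). Rfc3 had 8.41 and 8.57 with EPZ4777, against 8.80 and 8.97 in DMSO, and the groups did not overlap (limma adjusted p = 0.109). Pcna, the clamp itself, had 13.28 and 13.32 with EPZ4777, against 13.41 and 13.40 in DMSO. That is a small and even gap of -0.10 (limma adjusted p = 0.619).

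All 8 polymerase and primase genes had a negative difference and 7 did not overlap. Below Pold2 came Pola1, the catalytic subunit of the polymerase that starts each strand (-0.41, limma adjusted p = 0.116), Pole, that of the leading-strand polymerase (-0.36, 0.112), and Pold1, that of the lagging-strand polymerase (-0.27, 0.314). Their accessory subunits Pole2 and Pola2 differed by -0.15 and -0.14. On the probe sets used, the primase subunits hardly differed. Prim1 differed by -0.04, and Prim2 had 9.61 and 9.38 with EPZ4777, against 9.59 and 9.48 in DMSO, with overlapping arrays (-0.04, limma adjusted p = 0.898). A second Prim2 probe set of like level (mean log2 9.47, against 9.64) gave -0.26, and a second Prim1 set gave 0.05.

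Of the 5 genes for single-strand binding and Okazaki fragment maturation, 4 did not overlap. Rpa2, the RPA subunit phosphorylated when forks stall, had 9.87 and 9.52 with EPZ4777, against 10.34 and 10.22 in DMSO. It was lower on both arrays (-0.58 ± 0.15, limma adjusted p = 0.071, 0.045 with the code as a block). Its partners in the RPA trimer differed less, Rpa1 by -0.15, while Rpa3 had 10.64 and 10.53 with EPZ4777, against 10.68 and 10.68 in DMSO (-0.09, limma adjusted p = 0.721). Fen1, the flap nuclease, differed by -0.22, and Lig1, which seals Okazaki fragments, by -0.13.

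Nucleotide-supply genes had a median of -0.25, and 3 of 5 did not overlap. Rrm1 and Rrm2, the subunits of ribonucleotide reductase, differed by -0.25 and -0.23, and Dut, which clears dUTP, by -0.25. Tk1, the salvage kinase for thymidine, had 9.54 and 9.46 with EPZ4777, against 9.53 and 9.56 in DMSO, which is no separation (-0.05, limma adjusted p = 0.870). Tyms, which makes thymidylate, was read from a dim probe set at 5.23 and 6.18 with EPZ4777, against 5.97 and 6.29 in DMSO. The A4 array was far below D11 and the groups overlapped (-0.42, limma adjusted p = 0.492). A bright probe set that Tyms shares with its pseudogene was not used.

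In chromatin assembly, Chaf1b, a subunit of the histone chaperone CAF-1, had 8.74 and 8.34 with EPZ4777, against 9.03 and 8.86 in DMSO. Both arrays were lower, with a spread nearly as wide as the gap (-0.40, limma adjusted p = 0.247). Uhrf1, which brings the maintenance DNA methyltransferase to newly copied DNA, differed by -0.31 (limma adjusted p = 0.140). Slbp, the binding protein of histone mRNA stem-loops, had 11.60 and 11.74 with EPZ4777, against 11.56 and 11.60 in DMSO (0.09, limma adjusted p = 0.740), with the groups touching. A second, dimmer Slbp probe set (mean log2 7.89, against 11.72) gave -0.18.

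On the probe sets used, the 4 G1/S control genes were the group with a positive median, 0.11. Ccne1, the cyclin E that fires Cdk2, was lower with 8.90 and 9.15 under EPZ4777, against 9.49 and 9.43 in DMSO (-0.43 ± 0.12, limma adjusted p = 0.087). Its relative Ccne2 differed by 0.09 (0.928) and the activator E2f1 by 0.14 (0.568). A second E2f1 probe set of like level (mean log2 7.69, against 7.89) gave -0.11. The sign of E2f1, and with it the median of this small group, therefore depends on the probe set. E2f2 had 8.74 and 9.78 with EPZ4777, against 8.64 and 9.22 in DMSO (0.33, limma adjusted p = 0.697). Code D11 was higher than A4 in both agents, and the codes lay further apart than the agents.

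After 21 days of EPZ4777 in labelled shSirt1 cells the replication genes lay close to DMSO. Their mean log2 intensity was 10.26 (A1) and 10.25 (A5) with EPZ4777, against 10.30 and 10.30 in DMSO. The median difference was -0.04 (97.0% of the DMSO level), against 0.011 over all genes, and by code -0.04 in A1 and -0.06 in A5. No replication gene passed the test in either direction, where 0.181% of all genes were called lower and 0.214% higher. With the code as a block the count was also 0 and 0, against 0.907% and 1.31% of all genes. At an unadjusted p under 0.05, 2 were lower and 0 higher, against 7.98% and 7.83% of all genes. Both EPZ4777 arrays lay below both DMSO arrays in 19 genes (23% of all genes) and above in 10 (26% of all genes), so the upward share was no larger than the background and the downward share, 38%, was above it.

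By role, the polymerase and primase genes had the lowest median at 21 days, -0.15, with 8 of 8 negative. In 6 of them both EPZ4777 arrays lay below both DMSO arrays (23% of all genes). Helicase and initiation genes followed at -0.12. Pold2 stood furthest down, and next came Gins1 at -0.29 (limma adjusted p = 0.361), Rfc2 at -0.28 and Fen1 at -0.25. Licensing (-0.05), single-strand binding and Okazaki (-0.04) and clamp and loader genes (-0.01) were near 0. Nucleotide-supply (0.04), chromatin (0.11) and G1/S control genes (0.15) had positive medians. E2f2 was highest, with 9.44 and 9.90 with EPZ4777, against 9.13 and 8.70 in DMSO. Its groups did not overlap, but the A5 gap was far wider than that of A1 (0.75 ± 0.37, limma adjusted p = 0.377).

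The difference between the EPZ4777 effects, labelled shSirt1 minus shLUC, had a median of 0.20 over the replication genes and 0.026 over all genes, and 43 of 50 values were positive. As single genes none passed limma's test of that difference, in which 0% of all genes were called lower and 0% higher. At an unadjusted p under 0.05 it counted 6 genes higher (12%, against 3.49% of all genes) and 1 lower (3.22% of all genes). The largest negative value was that of Cdc7 (-0.63 ± 0.17, limma adjusted p = 0.622), and Cdc6 stood at 0.44 and Mcm10 at 0.35 (adjusted p = 0.638 and 0.741). A smaller effect at 21 days is therefore not shown for any gene named here. Hairpin label, code and days in drug change together between the arms and cannot be told apart.

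**Figure D3:**
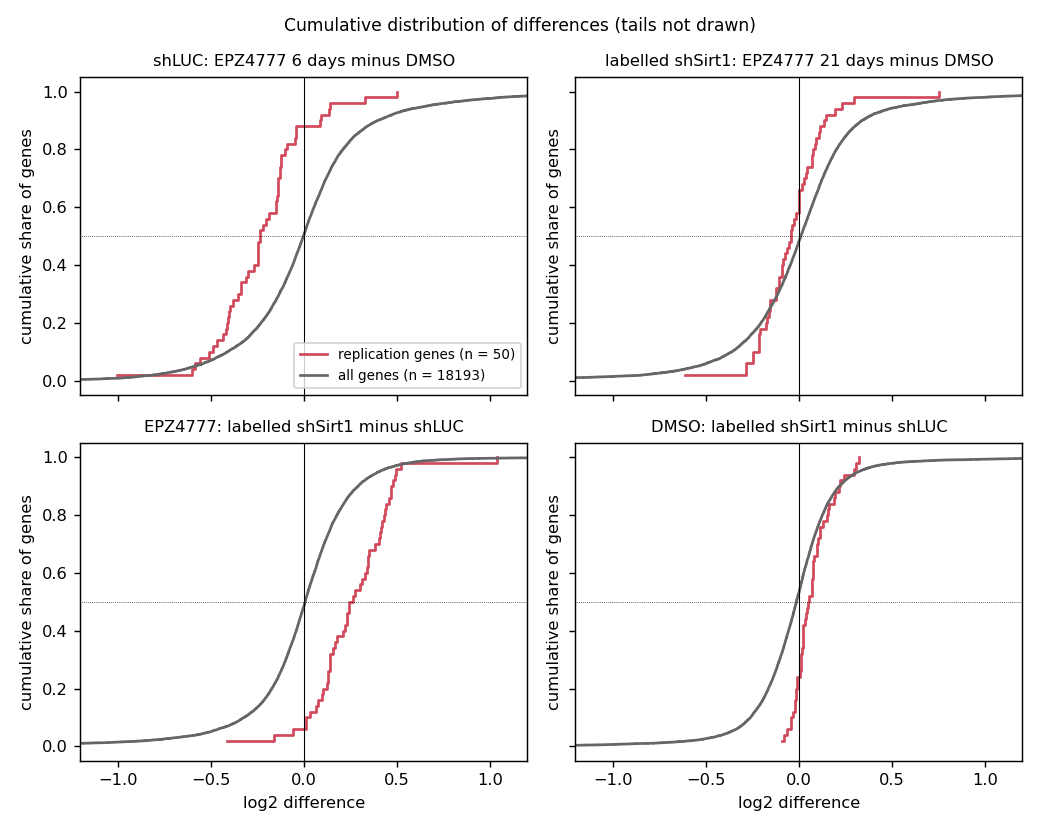
Cumulative share (y axis) of log2 differences (x axis, tails not drawn) for the 50 replication genes (red) and all 18193 genes (grey), in 4 comparisons. The red curve lies left of the grey in shLUC cells with EPZ4777 (medians -0.24 and -0.0025), right of it for labelled shSirt1 against shLUC in EPZ4777 (0.25 and 0.0071), and nearer to it in the other 2.

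Between hairpin labels, the genes were higher in labelled shSirt1 than in shLUC cells when both had EPZ4777, at 21 and 6 days. The median was 0.25, against 0.0071 over all genes, and 41 of 50 genes (82%) had both labelled shSirt1 arrays above both shLUC arrays, against 21% of all genes. In 2, Cdc7 and E2f1, the order was reversed (18.2% of all genes). No replication gene passed the test (0.242% of all genes were called lower and 0.066% higher), and at an unadjusted p under 0.05 there were 24 higher (48%, against 6.9% of all genes) and 1 lower (6.44% of all genes). The comparison shares its shLUC EPZ4777 arrays with the 6-day comparison, so the values of each stand side by side and neither bears on the other. The smallest limma adjusted p among the 50 was 0.123, for Cdc6 (0.46 ± 0.10). Rrm2 differed by 0.47, Uhrf1 by 0.47 and Orc1 by 0.52.

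In DMSO the differences between the labels were small in size. The median was 0.05 against -0.013 over all genes, with 38 of 50 values positive, and no replication gene passed (0% of all genes lower, 0% higher, and at an unadjusted p under 0.05 2 replication genes higher and 0 lower, against 2.01% and 3.4% of all genes). In 16 genes (32%) both labelled shSirt1 arrays lay above both shLUC arrays, against 17% of all genes, and in 2 (4%) below, against 22.2%. The upward share was thus above the background and the downward share below it. Tk1 was among the 16, with 9.89 and 9.80 in labelled shSirt1 cells, against 9.53 and 9.56 in shLUC cells (0.30 ± 0.10, limma adjusted p = 0.882). Rpa3 had 10.93 and 11.02, against 10.68 and 10.68 (0.29, limma adjusted p = 0.882). With EPZ4777 on both sides Tk1 differed by 0.35 and Rpa3 by 0.34 between the labels.

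Other probe sets of the same genes gave a like picture at 6 days. Of the 59 unused probe sets, 47 had the sign of the one used, and 46 were brighter than the median of all probe sets. These 46 were first reduced to a median for each of 35 genes. Over the 35 genes the median was then -0.26, against -0.24 for the sets used in the same genes. In a fit of all 45037 probe sets, named or not, limma with Benjamini-Hochberg adjustment called 7 of 109 replication probe sets lower (2.17% of all probe sets) and 0 higher (1.09%). Among them were the other Orc2 sets at -1.23 and -0.81 (adjusted p = 0.024 and 0.045) and a second Rrm1 set at -0.81 (0.034). Second sets of Orc1 (-0.62, 0.049) and Ccne1 (-0.71, 0.047) passed as well. Orc2, Rrm1, Orc1 and Ccne1 therefore had a call on a dimmer probe set and none on the brightest.

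Neighbouring gene lists, none of whose genes are among the 50, differed among themselves. Of 31 other replication factors 2 fell at 6 days (4 with the code as a block) and none rose, with a list median of -0.21. Orc5, another ORC subunit, fell by 1.06 on the log2 scale (limma adjusted p = 0.033), and Dscc1, of an alternative clamp loader, fell by 0.72 (0.037). The other nucleotide-supply genes had the lowest median, -0.54, and 6 of 23 measured fell (9 with the code as a block) while none rose. They included Dctd, the deoxycytidylate deaminase (-1.20, limma adjusted p = 0.030), and, from pyrimidine synthesis, Dhodh (-0.94, 0.044), Umps (-0.91, 0.030) and Ctps (-0.86, 0.035). Of 22 fork-repair and checkpoint genes, Atr, the kinase that senses stalled forks, fell by 1.05 (limma adjusted p = 0.035) and none rose, with a median of -0.26. Among 12 histone chaperone genes 2 fell and none rose. Nasp fell by 0.66 and Asf1a fell by 0.62 (limma adjusted p = 0.038 and 0.044), with a median of -0.18.

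The remaining lists had positive medians at 6 days, and no difference between lists was tested. The 31 genes of E2F, RB and G1/S control had a median of 0.07 at 6 days, with 2 falling and none rising. With the code as a block 3 fell and 1, Lin54, rose (0.65, limma adjusted p = 0.036). Cdkn2c, an inhibitor of Cdk4 and Cdk6, had 7.59 and 8.02 with EPZ4777 in shLUC cells, against 10.51 and 10.84 in DMSO. It also had 7.78 and 7.75 with EPZ4777 in labelled shSirt1 cells, against 10.77 and 9.90 in DMSO. Cdkn2c thus lay far lower with EPZ4777 in both arms (-2.87, limma adjusted p = 0.024, and -2.57, adjusted p = 0.040). Cdk6 fell by 0.66 at 6 days (limma adjusted p = 0.047, 0.052 with the code as a block). Of 29 mitosis genes none passed in either direction, and their median was 0.11 at 6 days and 0.21 at 21 days. With the code as a block 1 of them, Cenpe, rose at 6 days (0.53, limma adjusted p = 0.043). At 21 days the medians were 0.0064 for other replication factors, -0.25 for nucleotide supply and -0.14 for fork repair, and no gene of these lists other than Cdkn2c passed.

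**Figure D4:**
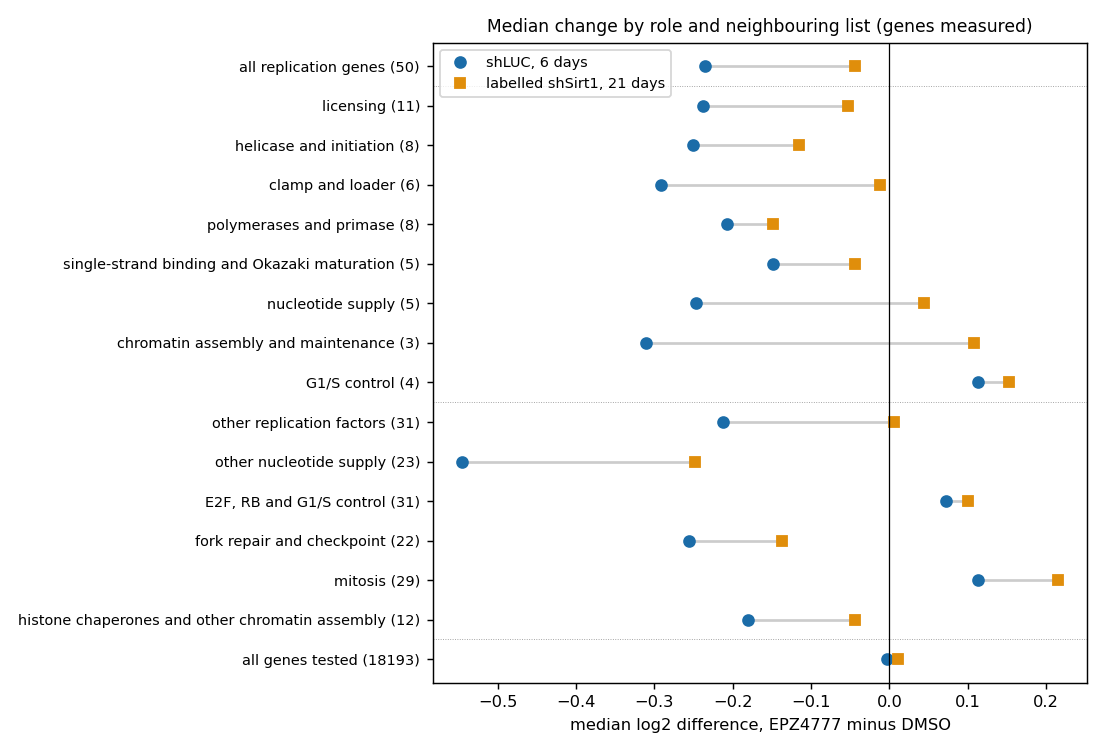
Median log2 difference, EPZ4777 minus DMSO (x axis), for each role among the 50 genes and for neighbouring lists (rows, with the number of genes measured), in shLUC cells at 6 days (circles) and labelled shSirt1 cells at 21 days (squares). At 6 days the circles lie between -0.15 and -0.54 for replication, repair, chaperone and nucleotide lists and above 0 for G1/S control (0.11) and mitosis (0.11).

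Maturation markers also differed in these comparisons. The median log2 difference of the 11 neutrophil markers was 2.03 at 6 days in shLUC cells and 2.57 at 21 days in labelled shSirt1 cells, with 11 of 11 positive in both. Of the 11, only Cd177 (3.95, limma adjusted p = 0.039) and Lcn2 (3.07, 0.047) passed the test at 6 days. None passed at 21 days, where the smallest limma adjusted p was 0.065, for Lcn2. Macrophage markers (10 of 10 measured) summed to 3680 and 5156 with EPZ4777, against 2105 and 2648 in DMSO in shLUC cells, with 10 of 10 positive. In labelled shSirt1 cells they summed to 621 and 880 with EPZ4777, against 598 and 1322 in DMSO, with 2 of 10 positive. As a list, neutrophil markers thus lay higher with EPZ4777 in both arms. The replication genes were lower as a group in shLUC cells and close to DMSO in labelled shSirt1 cells. Megakaryocyte markers (5 of 5 measured) summed to 1110 and 902 with EPZ4777, against 335 and 302 in DMSO in shLUC cells, and to 475 and 553 with EPZ4777, against 336 and 410 in DMSO in labelled shSirt1 cells. Of these only Pf4, a platelet chemokine, passed the test at 6 days, rising by 2.71 (limma adjusted p = 0.0098). Itga2b, Gp1bb and Gp9 differed by 0.13, 0.06 and -0.06, and the dim Ppbp by 0.66 (limma adjusted p = 0.420). The median of the list was 0.13, so the sum in shLUC cells mainly followed Pf4. Stromal markers were near background except in the A1 DMSO array (576, against 229 to 262 elsewhere). The part of these markers in the replication result was not tested.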

How the data were processed

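Total RNA of 8 samples was measured on 1 Affymetrix array each, and all 8 were mapped to 4 groups of 2 by their titles. The values the authors deposited are intensities on a linear scale, and the submitters' processing notes name RMA. RMA corrects background, normalizes between arrays, summarises probes and shrinks low signals, so dim genes understate a change. The sources used here name no RMA version, and for arrays the number of arrays limits the precision. Log2 of each intensity was taken with no pseudocount or further normalization. Of 45101 probe sets 64 controls were left out, 34945 had 1 gene symbol, 932 several and 9160 were unlisted and so unnamed, and 0 symbols changed on update. Each of 18193 genes was represented by its brightest probe set on average.

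limma 3.58.1 in R 4.3.3, with the data.table package at 1.17.8, fitted the 4 group means to all 8 arrays (lmFit, eBayes, 4 residual degrees of freedom), tested 5 comparisons two-sided and adjusted p by Benjamini-Hochberg over all genes, with a threshold of 0.05. The fit was tested on simulated data. The members, lists and tests were chosen with earlier results of these data known. Every member could be named, and values on each array are given for members past the threshold and the extremes of each role at 6 days, with Orc2 and Rpa2 added for the blocked fit and further genes by size after their values were seen.

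Codes in the titles join a DMSO and an EPZ4777 array. Over all genes, deviations from the group means correlated between the agents at 0.293 for shLUC and 0.378 for labelled shSirt1, against 0.401 and 0.040 between unrelated codes. Over the 50 replication genes these were 0.770 and 0.497, against 0.298 and -0.302. In a group of 2 arrays the codes deviate by opposite amounts. The sign between unrelated codes therefore rests on setting A1 beside A4, and only the size can be compared. With 2 codes for each hairpin the pairing is taken from the titles. Blocked fits (2 residual degrees of freedom) stand beside the counts of replication genes and of neighbouring lists that they change. Alternatives were the probe-set rule, a filter on dim genes, normalization, variance options, the block, other thresholds, the arrays compared and each array left out. Promoter windows are RefSeq's (GRCm38.p6). The coordinates apply to those windows alone, since the array values carry no coordinates.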

Additional observations from a re-analysis of the deposited data

How the results depend on the processing

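At 6 days in shLUC cells 3 replication genes passed. When each of the 34945 single-symbol probe sets was tested by itself, 9 probe sets passed, which is not a count of genes. The gene count was 8 without genes below the median level and 1 from the arrays compared alone. It was 13 with the code as a random replicate block (7.59% of all genes lower and 5.49% higher), 9 at an adjusted p under 0.10 and 0 at 0.01. The share of all genes called is given here for the blocks only. The other counts stand without it, so their rise or fall cannot be read as particular to the replication genes. It was 1 with both A5 arrays left out and 1 with both A1 arrays left out, alternatives chosen after seeing the data. Leaving out 1 array gave 0 to 3: 0 without either shLUC DMSO array or the D11 EPZ4777 array, 1 without either labelled shSirt1 DMSO array. In the other 4 comparisons the count was 0 under every alternative run. Pairing by the code as a fixed replicate block gave 4, losing Mcm10 and adding Orc2 and Rpa2, and changed no other call on the replication genes. Over all comparisons, 97 of 97 alternative medians moved by less than the median spread between replicate arrays (SD 0.0843). That spread is of single genes, and it is wider than the 21-day median (-0.04) and the median between labels in DMSO (0.05). For these 2 medians even a change of sign could count as unmoved, so the rule cannot show that they are stable.

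Small differences at 6 days changed sign. Mcm4 was -0.10 as the mean of its probe sets, and with quantile normalization Prim2 was 0.0052 and Tk1 0.0045. Leaving out 1 array moved Prim2 between -0.15 and 0.070, Tyms between -0.90 and 0.056 and E2f2 between -0.19 and 0.85. The cause was not tested. Of the values for single named genes under an alternative, 412 kept direction and side of the threshold, 28 no longer passed (of 21 alternatives each, Mcm10 in 15, Cdc6 in 9 and Pold2 in 4), 12 newly passed and 7 turned. With 2 arrays a group, most differences under 1 on the log2 scale could not be called, and RMA shrinks those of dim sets such as that of Tyms.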
